A study of Mus musculus with 28 samples.

Results

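Broad acetylation domains are stretches of the mouse genome covered by an unusually long H3K27ac peak in spermatogenic cells. A peak counted as long at 3000 bp or more. Long peaks of 12 H3K27ac libraries were merged where they overlapped, which gave 3345 regions. A region was kept as a domain when at least 1 group had a long peak there in both of its replicates and when no peak of any input library overlapped it. Of the 3345 regions, 1778 met the first condition, 29 of these were removed for an input peak, and 1749 remained. All H3K27ac peaks of any length merged into 129187 regions. The domains were thus selected on peak lengths measured in these libraries, and the number of groups that hold a domain and its lengths are a description of that selection.

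The cells were testicular germ cells of the C57BL/6 strain. The mice were wild type (WT) or had a knockout (KO) of Scml2, an X-linked gene related to the polycomb group, for which the labels give no allele. Spermatogonia sorted as Thy1+ or c-Kit+ came from postnatal day 7 (P7) and were profiled in both genotypes, while pachytene spermatocytes (PS) and round spermatids (RS) came from adult animals and their H3K27ac libraries analysed here were all KO. There were 6 H3K27ac groups, called Thy1 WT and Thy1 KO, KIT WT and KIT KO, PS KO, and RS KO. The other libraries were 8 groups of input chromatin. Every group had 2 replicates. Genotype could therefore be compared only in spermatogonia, and the step from spermatogonia to PS could not be told apart from the step from P7 to adult.

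Acetylation of lysine 27 of histone H3 marks active promoters and enhancers. Most acetylated promoters carry a short peak on the nucleosomes next to the start site, and in many tissues long acetylated stretches lie over genes that are transcribed at a high rate or that characterise the cell type. During spermatogenesis the genome passes through meiosis, in which the X and Y chromosomes are silenced in pachytene spermatocytes, and then into round spermatids, which transcribe the genes for transition proteins, protamines, the sperm tail and the acrosome.

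Promoters of 8 domain genes are printed as examples of how unlike the DNA under long acetylation can be. They were picked by gene and do not represent the shares over all domains, which are given further below. Each is the 200 bases before the RefSeq start on GRCm38.p6, the same build as mm10, read 5′ to 3′ on the gene's strand, with each CG dinucleotide in capitals. Brd2, a bromodomain protein that binds acetylated histones, and Jun, a subunit of the AP-1 transcription factor, lie in domains held by spermatogonia and adult cells. Junb, another AP-1 subunit, lies in a domain held by PS and RS, and Ddx3x, an X-linked RNA helicase, in a domain held by PS alone. Tnp1 (transition protein 1), Prm1 (protamine 1) and Spem1 (needed for sperm maturation) lie in domains held by RS alone, and Akap4, an X-linked scaffold protein of the sperm tail, in a domain held by PS alone. In the order printed, the windows are chr17:34122608-34122807 on the minus strand, chr4:95052223-95052422 on the minus strand, chr8:84978749-84978948 on the minus strand, chrX:13280822-13281021 on the plus strand, chr1:73015900-73016099 on the minus strand, chr16:10796824-10797023 on the minus strand, chr11:69822166-69822365 on the minus strand and chrX:7067315-7067514 on the plus strand.
Brd2: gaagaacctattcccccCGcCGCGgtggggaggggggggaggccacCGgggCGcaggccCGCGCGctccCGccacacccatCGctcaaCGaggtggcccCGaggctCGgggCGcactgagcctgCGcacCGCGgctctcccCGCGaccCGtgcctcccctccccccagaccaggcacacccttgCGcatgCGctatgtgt
Jun: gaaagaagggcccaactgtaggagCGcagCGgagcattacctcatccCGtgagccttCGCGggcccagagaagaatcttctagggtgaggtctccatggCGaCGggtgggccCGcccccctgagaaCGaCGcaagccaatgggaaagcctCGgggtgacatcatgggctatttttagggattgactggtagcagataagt
Junb: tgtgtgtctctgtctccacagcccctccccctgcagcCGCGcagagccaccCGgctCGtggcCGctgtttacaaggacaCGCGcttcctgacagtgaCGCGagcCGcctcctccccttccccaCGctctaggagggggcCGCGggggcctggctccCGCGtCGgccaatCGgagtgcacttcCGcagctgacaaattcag
Ddx3x: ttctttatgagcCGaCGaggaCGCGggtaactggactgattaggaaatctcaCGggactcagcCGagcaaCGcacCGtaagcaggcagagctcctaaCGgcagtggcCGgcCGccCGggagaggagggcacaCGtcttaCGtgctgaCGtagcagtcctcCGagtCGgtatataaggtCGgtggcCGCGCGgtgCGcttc
Tnp1: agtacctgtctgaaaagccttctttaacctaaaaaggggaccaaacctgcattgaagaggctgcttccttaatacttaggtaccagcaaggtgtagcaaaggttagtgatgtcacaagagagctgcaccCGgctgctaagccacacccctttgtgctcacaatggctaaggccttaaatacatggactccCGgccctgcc
Prm1: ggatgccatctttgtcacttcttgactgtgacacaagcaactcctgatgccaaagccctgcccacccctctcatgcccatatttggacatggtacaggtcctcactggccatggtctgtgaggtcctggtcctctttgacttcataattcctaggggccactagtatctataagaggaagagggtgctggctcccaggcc
Spem1: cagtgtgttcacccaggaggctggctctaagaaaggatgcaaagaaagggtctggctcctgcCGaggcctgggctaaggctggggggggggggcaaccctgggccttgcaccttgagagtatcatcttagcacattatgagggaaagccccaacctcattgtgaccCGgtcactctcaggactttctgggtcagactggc
Akap4: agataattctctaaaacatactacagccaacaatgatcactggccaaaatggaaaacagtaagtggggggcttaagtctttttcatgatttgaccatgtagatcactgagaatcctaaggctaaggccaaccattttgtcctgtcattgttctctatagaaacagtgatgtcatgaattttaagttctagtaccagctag
The windows of Brd2, Jun, Junb and Ddx3x held 22, 11, 18 and 22 CG dinucleotides. Those of Tnp1, Prm1, Spem1 and Akap4 held 2, 0, 2 and 0.

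Domains also covered miRNA genes, and a few mature sequences are given because the domain lies over the hairpin itself. The seed, bases 2 to 8, is in capitals. The miR-34b and miR-34c hairpins lie in 1 domain held by PS and RS, in the gene listed as 4833427G06Rik (chr9:51100731-51105381); this miRNA family is known for its high level in male meiotic and postmeiotic germ cells.
miR-34b-5p: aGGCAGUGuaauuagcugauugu
miR-34b-3p: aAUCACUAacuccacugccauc
miR-34c-3p: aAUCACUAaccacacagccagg
let-7e-5p: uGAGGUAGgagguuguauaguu
miR-125a-5p: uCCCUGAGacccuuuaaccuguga
miR-17-5p: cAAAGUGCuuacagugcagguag
miR-191-5p: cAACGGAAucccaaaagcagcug
miR-22-3p: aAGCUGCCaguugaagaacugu
The sequences printed for miR-34b-3p and miR-34c-3p share the seed AUCACUA. The let-7e and miR-125a hairpins lie in 1 domain (chr17:17825562-17832632, held by PS and RS), and the miR-17 hairpin in a domain held by PS alone (chr14:115040036-115043764).

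The number of long peaks differed between replicates as well as between stages. A library's background height, the signal level the peak caller took as background, served as a relative indicator of depth, because the files give no read counts. In spermatogonia replicate 1 had 45 to 329 long peaks at background heights of 0.754 to 1.115, and replicate 2 had 21 to 30 at 0.564 to 0.715. The PS libraries had 2015 and 1463 long peaks at 1.623 and 0.876, and the RS libraries 2433 and 1242 at 1.557 and 0.849. The inputs had 9 to 13 at 0.777 to 0.944. Both adult libraries of a replicate number had higher background heights than the 4 spermatogonial libraries of that number. Thy1 KO replicate 1 stood apart from its group with 329 long peaks against 21. Background height and stage thus moved together within each replicate number, but not across the numbers. KIT KO, Thy1 KO and Thy1 WT replicate 1 had heights of 1.115, 0.975 and 0.908, above those of PS and RS replicate 2. They had 127, 329 and 45 long peaks, against 1463 and 1242 in PS and RS replicate 2. The part of depth in the number of domains was not tested beyond the alternatives given in the closing section.

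**Figure D1:**
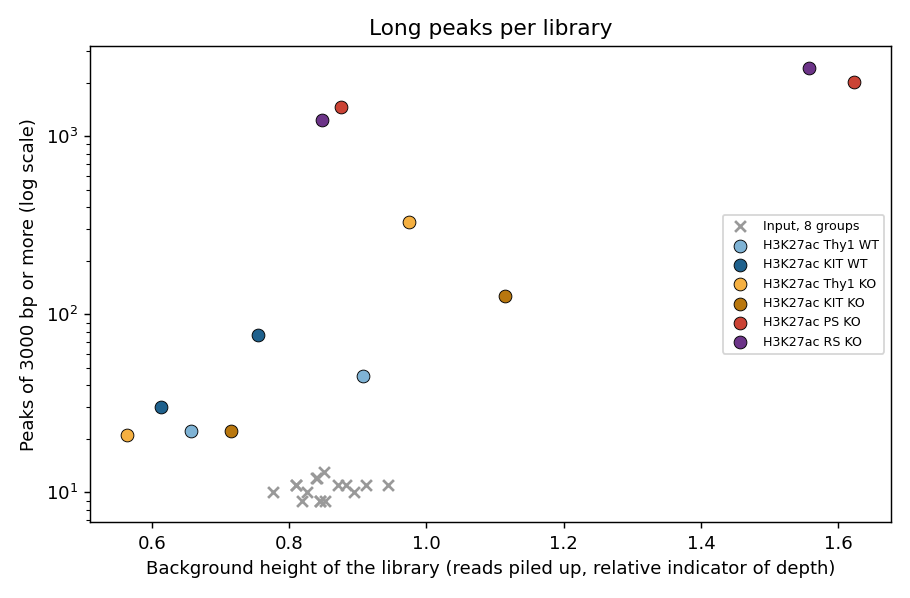
Number of peaks of 3000 bp or more per library (vertical axis, log scale) against the library's background height, the relative indicator of depth (horizontal axis); each point is 1 library, coloured by H3K27ac group, with inputs as grey crosses. The 4 adult libraries lie between 1242 and 2433, the 8 spermatogonial libraries between 21 and 329, and the inputs between 9 and 13.

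Long peaks of the replicate with the lower background height were mostly also long in the other one. In RS, 94.2% of the long peaks of replicate 2 overlapped a long peak of replicate 1, and 47.6% of those of replicate 1 overlapped one of replicate 2. In PS the shares were 84.4% and 61.2%. In Thy1 KO cells they were 90.5% and 5.47%, the widest gap among the 6 groups.

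Almost all domains were held by adult cells. PS held 1199 and RS 1127, against 9 in Thy1 WT, 15 in KIT WT, 14 in Thy1 KO and 10 in KIT KO. PS alone held 619 domains, RS alone 550, and PS and RS together, without spermatogonia, 549. The other 31 were held by at least 1 spermatogonial group, and each of these was also held by PS. No domain was held by spermatogonia alone. When the 21 longest peaks of each library were taken in place of a length limit, 26 domains resulted, of which adult cells alone held 12, spermatogonia alone 11 and both 3. Without replicate 2 of Thy1 KO, so that a long peak in replicate 1 sufficed for that group, 93 domains were held by spermatogonia alone and 226 by spermatogonia and adult cells.

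Most domains that spermatogonia did not hold still had a shorter peak there. Of all domains, 1295 (74.0%) had a peak of some length in all 8 spermatogonial libraries and 227 (13.0%) had none in any of them. Among domains held by PS alone, 485 of 619 (78.4%) had a peak in all 8 and 51 (8.24%) in none. Domains held by RS alone had the lowest share, with 279 of 550 (50.7%) in all 8 and 152 (27.6%) in none. Among those held by PS and RS, 500 of 549 (91.1%) had a peak in all 8.

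Lengths within the adult cells showed how narrowly the classes were separated. In domains held by PS alone, the median longest peak was 3680 and 3536 bp in PS replicates 1 and 2, and 2899 and 2283 bp in RS. In domains held by RS alone it was 4112 and 3552 bp in RS, and 3010 and 2206 bp in PS. Replicate 1 of RS had a long peak in 264 of the 619 domains held by PS alone and replicate 2 in 19; PS replicate 1 had one in 278 of the 550 held by RS alone and replicate 2 in 21. Because a group needed a long peak in both replicates, a domain with a long peak in 1 replicate of the other stage stayed in the class held by a single stage. The 31 domains shared with spermatogonia had medians of 5822 and 5493 bp in PS and 2541 to 4292 bp in the spermatogonial libraries.

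**Figure D2:**
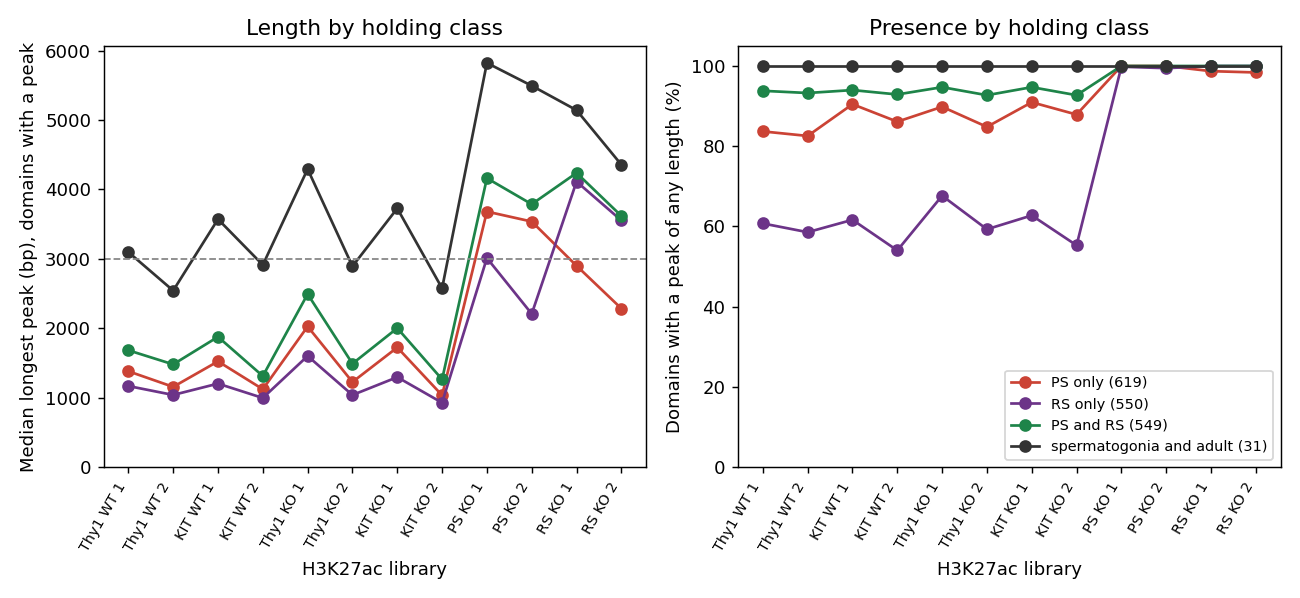
Left, the median longest peak (bp) over domains with a peak, and right, the percentage of domains with a peak of any length, in each of the 12 H3K27ac libraries, for the 4 classes of domains by the stages that hold them; the dashed line marks 3000 bp. Domains held by RS alone have the lowest share with a spermatogonial peak, and the 31 domains shared with spermatogonia are the longest class in every library.

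Domains were 3087 to 29491 bp wide, with a median of 4331 bp. The median was 3962 bp for PS alone, 4274 bp for RS alone, 4751 bp for PS and RS, and 6492 bp for the 31 shared with spermatogonia. The length limit cut through a continuous range: 498 members (28.5%) had a shorter replicate under 3300 bp in their best group, and 574 regions that were not kept had one over 2700 bp. Just inside the limit lay the domains near Bcr (3000 bp in the shorter PS replicate) and near Tnfaip2 (3000 bp in RS), and just outside it the regions near Spata25 (2998 bp in RS) and near Sgsm2 and Tsr1 (2997 bp in RS).

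Most domains covered a gene start. A listed transcription start lay in 1476 of 1749 (84.4%). The share was 75.9% of all merged H3K27ac regions of 3000 bp or more, 65.2% of those from 2000 bp to under 3000 bp, 36.6% of those from 1000 bp to under 2000 bp and 2.15% of those below 1000 bp, so it was larger in wider regions. By class it was 79.5% for PS alone, 80.9% for RS alone, 92.9% for PS and RS, and 93.5% for the 31. Starts of at least 2 genes lay in 310 domains (17.7%), and in 268 (15.3%) the genes were on opposite strands. In domains with 1 start the acetylated stretch reached further into the gene than upstream of it: the medians were 1677.5 bp upstream and 2215 bp downstream for PS alone, 1738 and 2310 bp for RS alone, and 2017 and 2557 bp for PS and RS. The downstream side was the longer in 67.3%, 65.6% and 63.3% of these domains; among single-start peaks from 1000 bp to under 2000 bp it was the longer in 73.6% to 78.1%, depending on the library.

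The 2 domains held by all 6 groups covered Brd2 and Kmt2e. At Brd2 and its neighbour H2-DMa (chr17:34115684-34124276), the longest peak was 5046 and 4538 bp in Thy1 WT replicates 1 and 2, 5414 and 4300 bp in KIT WT, 6044 and 3448 bp in Thy1 KO, and 5226 and 5348 bp in KIT KO. It was 8179 and 7823 bp in PS and 7624 and 7564 bp in RS, so the adult lengths did not overlap the spermatogonial ones. At Kmt2e, which encodes a PHD-finger and SET-domain protein (chr5:23431668-23436741), lengths were 3166 to 3888 bp in the 8 spermatogonial libraries, 4509 and 5074 bp in PS, and 4619 and 4102 bp in RS. Here too each adult peak was longer than any spermatogonial one.

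The other longest domains of Thy1 WT lay at Ptma and Hivep2 and near a group of miRNA genes. Ptma, which encodes prothymosin alpha (chr1:86523825-86529409), had peaks of 3987 and 3727 bp in Thy1 WT, and was held by that group and the adult cells. In KIT WT its lengths were 3478 and 1822 bp, in Thy1 KO 4615 and 1774 bp, and in KIT KO 4593 and 2029 bp. The low value in each of these 3 groups was replicate 2. PS had 5550 and 5493 bp and RS 5445 and 5483 bp. Hivep2, a zinc-finger transcription factor (chr10:13963936-13968542), had 4045 and 3953 bp in Thy1 WT. A domain with no start, 2142 bp from the nearest of the miRNA genes Mir181c, Mir181d, Mir23a, Mir24-2 and Mir27a and of Nanos3 (chr8:84197047-84206376), had 3576 and 4104 bp in Thy1 WT, 9279 and 8123 bp in PS and 8302 and 7974 bp in RS.

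The long noncoding RNA genes Neat1 and Malat1, which are neighbours on chromosome 19, gave the longest domains of KIT WT. Neat1 (chr19:5834995-5853688), whose RNA scaffolds nuclear paraspeckles, had 4367 and 2979 bp in Thy1 WT, 6618 and 5308 bp in KIT WT, 7152 and 2677 bp in Thy1 KO and 7087 and 2807 bp in KIT KO. In PS it was covered over 18489 and 18258 bp and in RS over 13604 and 13211 bp, each longer than any spermatogonial peak there. Malat1 (chr19:5793881-5805750), an abundant nuclear RNA, had 2505 and 2388 bp in Thy1 WT, 6435 and 5342 bp in KIT WT, 6599 and 2651 bp in Thy1 KO and 7162 and 3603 bp in KIT KO. PS had 11868 and 11178 bp and RS 7034 and 5158 bp, so at Malat1 the RS lengths lay within the range of KIT cells. Of 22 noncoding host and long noncoding genes on a list, 6 had a start in a domain; the others were Snhg3, Snhg5, Gas5 and Dleu2.

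**Figure D3:**
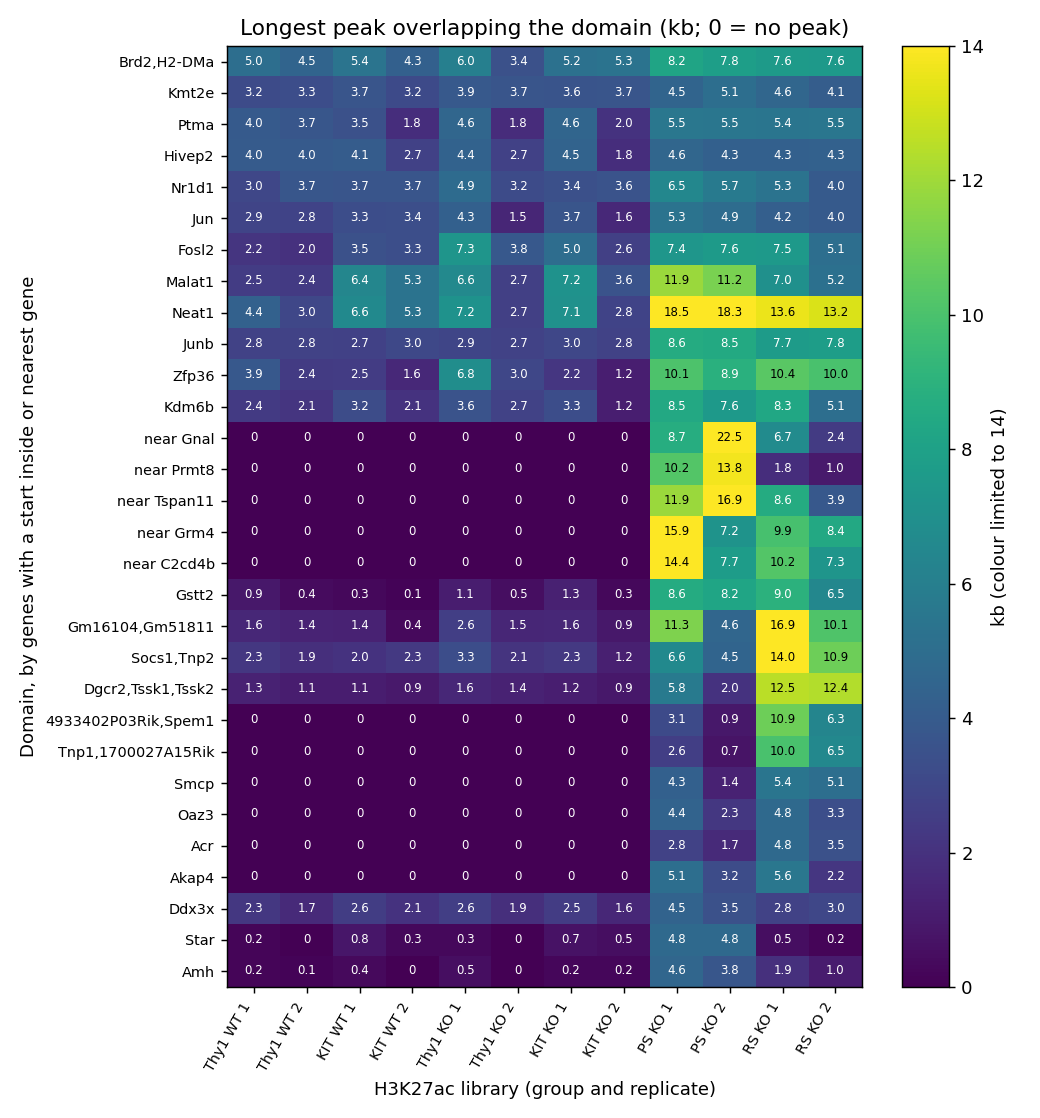
Longest peak overlapping each of 30 named domains (rows) in each H3K27ac library (columns), in kb, with 0 for no peak; colour repeats the number and is limited to 14 kb. The rows of Brd2 and Kmt2e carry long peaks in every library, and rows such as Tnp1 and Spem1 are at 0 in all 8 spermatogonial libraries and longest in RS.

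Genes that respond quickly to growth factors and stress, the immediate early genes, were the list with the largest share in domains: 29 of 43 (67.4%), against 2102 of 32014 genes with a listed start (6.57%) and 1637 of 20591 protein coding genes (7.95%). The lists were chosen with earlier results of these data known, and these shares are counts without a test. PS alone held 11 of the 29 domains, RS alone 2, both adult groups 14, and 2 (Jun and Fosl2) were shared with spermatogonia. Junb had 2706 to 3043 bp in the 8 spermatogonial libraries, 8633 and 8513 bp in PS, and 7704 and 7792 bp in RS. The spermatogonial lengths lay in a narrow range just around the limit, and every adult peak was longer than all of them. Among the 8 spermatogonial libraries, a peak covered the listed start of Junb in both KIT WT replicates and Thy1 KO replicate 2 alone. Zfp36, whose product destabilises mRNAs with AU-rich elements, had 3851 and 2412 bp in Thy1 WT, 2479 and 1616 bp in KIT WT, 6849 and 2958 bp in Thy1 KO and 2237 and 1193 bp in KIT KO. In PS it had 10116 and 8866 bp and in RS 10409 and 9968 bp.

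Dusp1, a phosphatase of MAP kinases, differed in length between the adult stages, with 8484 and 7978 bp in PS and 4266 and 3916 bp in RS, after 1036 to 2326 bp in spermatogonia. Fos had 5295 and 4256 bp in PS, 4502 and 3600 bp in RS and 1036 to 2928 bp in spermatogonia. Egr1 was held by PS alone (5637 and 5041 bp, against 4010 and 2488 bp in RS). Egr3 was held by RS alone (4411 and 4403 bp, against 2254 and 1646 bp in PS), and it was the only one of the 29 domains with no peak in some spermatogonial libraries, 3 of 8. Fosl2 had 7307 and 3848 bp in Thy1 KO, 5010 and 2647 bp in KIT KO, 2173 and 1970 bp in Thy1 WT and 3483 and 3339 bp in KIT WT; the KO and WT ranges overlap.

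Genes of postmeiotic germ cells formed another group. Of 40 spermatid genes on the list, 22 (55%) had a start in one of 19 domains, of which RS alone held 14, PS and RS 3, and PS alone 2. The domain over Tnp2, Prm2, Prm3 and Socs1 (chr16:10781374-10795420) was the longest of them. It had 14047 and 10887 bp in RS, 6634 and 4528 bp in PS and 1222 to 3312 bp in spermatogonia. The spermatogonial peaks did not cover the starts of Tnp2, Prm2 or Prm3, where no peak was called in any of the 8 libraries. The peak over these starts had a fold enrichment of 29.3 and 24.9 in RS and 19.8 and 9.06 in PS. The highest fold enrichment anywhere in the domain, which also holds the start of Socs1, a suppressor of cytokine signalling and no spermatid gene, was 29.3 and 24.9 in RS and 32.8 and 28.8 in PS. Prm1 had a domain of its own next to that one (chr16:10795580-10800436), with 4857 and 3844 bp in RS, 2603 and 426 bp in PS and no peak in any spermatogonial library.

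The domain over Tssk1 and Tssk2, testis-specific kinases, and Dgcr2 (chr16:17890370-17902902) was nearly as long. Lengths were 12530 and 12387 bp in RS, 5791 and 2037 bp in PS, and 927 to 1567 bp in spermatogonia. No spermatogonial peak covered the start of either kinase. The peak over the Tssk2 start had a fold enrichment of 25.4 and 20.0 in RS and 13.0 and 8.53 in PS, and the one over Tssk1 25.4 and 20.0 in RS and 27.8 and 8.53 in PS. The highest value anywhere in the domain was 27.8 and 31.5 in PS. Tnp1 (chr1:73011913-73021904) had 9992 and 6520 bp in RS, 2595 and 733 bp in PS and no spermatogonial peak. Its fold enrichment was 17.6 and 15.7 in RS and 11.1 and 6.40 in PS. The domain over Spem1 and 4933402P03Rik (chr11:69812895-69823782) had 10888 and 6347 bp in RS, 3143 and 929 bp in PS and again none in spermatogonia. Its highest fold enrichment was 22.3 and 20.0 in RS and 12.6 and 7.46 in PS. The peak over the Spem1 start had 22.3 and 14.6 in RS and 10.3 in PS replicate 1, and PS replicate 2 had no peak over that start. In both domains, the RS replicates were longer and higher than the PS replicates.

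Several other genes of sperm structure had no peak over the domain in any of the 8 spermatogonial libraries. These were Smcp, a protein of the sperm mitochondrial sheath (5441 and 5069 bp in RS, 4277 and 1356 bp in PS), Oaz3, the testis antizyme (4774 and 3337 bp, 4442 and 2289 bp), Odf1, an outer dense fibre protein (4862 and 3616 bp, 3562 and 2280 bp), and the acrosomal protease gene Acr (4761 and 3460 bp, 2783 and 1665 bp). Catsper4, a subunit of the sperm calcium channel, had 4070 and 3273 bp in RS and 2296 and 742 bp in PS. Ropn1 had 3359 and 3153 bp in RS and 2739 and 207 bp in PS, and Dkkl1 3193 and 3146 bp and 2725 and 1875 bp. By contrast Crem, Sox30 and Odf2, also held by RS alone, carried a shorter peak in every spermatogonial library (1646 to 2109 bp at Crem, 180 to 1135 bp at Sox30 and 740 to 2117 bp at Odf2). Crem and Sox30 encode transcription factors required in spermatids. Rfx2, another such factor, was held by PS (4055 and 3993 bp) and RS (3792 and 3260 bp).

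Of 39 meiotic genes, 5 (12.8%) had a start in a domain, beside 6.57% of all genes and 7.95% of protein coding genes. Among them were Piwil1, Ldhc, Meioc (in the domain listed under Gm1564) and Hspa2. At Piwil1, which encodes the PIWI protein that binds pachytene piRNAs, lengths were 3656 and 3266 bp in PS and 3469 and 3470 bp in RS, with no spermatogonial peak. Ldhc, the germ cell lactate dehydrogenase, had 4424 and 2861 bp in PS and 5821 and 3006 bp in RS and was held by RS alone. Hspa2, the testis heat shock protein, had 336 to 861 bp in spermatogonia, 3591 and 3586 bp in PS and 4066 and 3427 bp in RS. Peaks of any length covered 39 and 38 of the 39 meiotic starts in PS. Of 34 spermatogonial genes, Foxo1 alone had a domain, held by PS (3181 and 3210 bp).

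Of 55 genes for chromatin regulators, 15 (27.3%) had a start in a domain, and of 25 for heat shock and protein folding 11 (44%). The shares were 6.57% of all genes and 7.95% of protein coding genes, and the difference was not tested. Kdm6b, a demethylase of H3K27me3 (chr11:69412894-69421538), had 8471 and 7555 bp in PS, 8340 and 5052 bp in RS and 1199 to 3589 bp in spermatogonia. Another domain next to it, with a listed start 920 bp away (chr11:69407469-69412755), was held by all groups but KIT KO, where it had 3591 and 2146 bp. Ring1, a core subunit of polycomb repressive complex 1, was held by PS alone, with 5903 and 6002 bp against 3249 and 2007 bp in RS and 923 to 1899 bp in spermatogonia. Jarid2, a partner of polycomb repressive complex 2, had 6114 and 5552 bp in PS, 3933 and 4081 bp in RS and 833 to 1962 bp in spermatogonia. Phc2, a polycomb subunit, and Kat2a, a histone acetyltransferase, were held by RS alone, at 3874 and 3560 bp and at 3188 and 3887 bp.

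**Figure D4:**
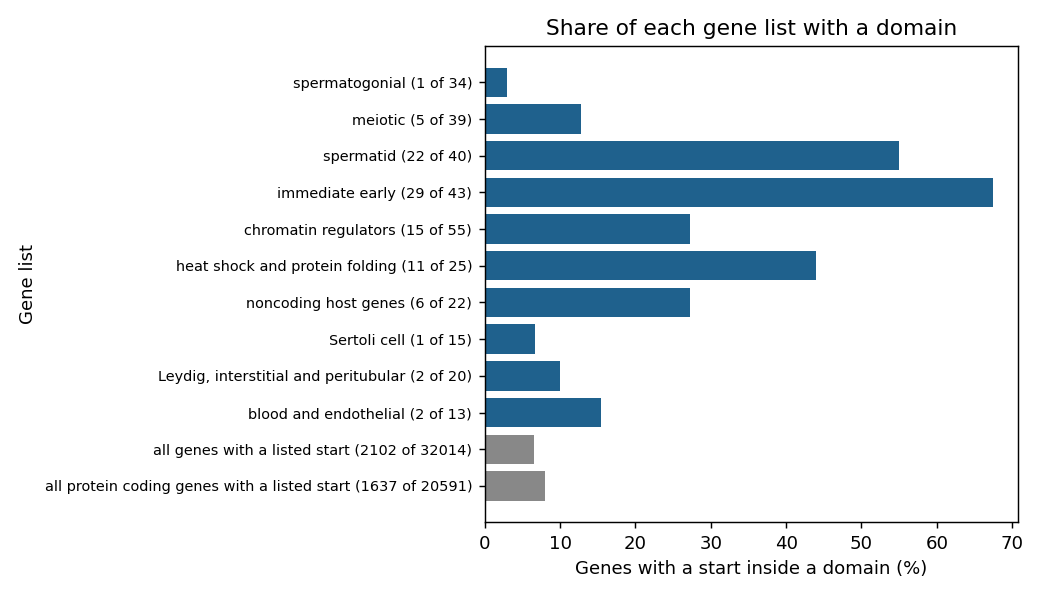
Percentage of the genes of each list with a listed start inside a domain (horizontal bars from 0), with the numbers of genes in brackets; the grey bars are all genes and all protein coding genes with a listed start. Immediate early genes (29 of 43) and spermatid genes (22 of 40) have the largest shares, and spermatogonial genes (1 of 34) the smallest.

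Domains without a listed start numbered 273. Their median distance to the nearest start was 9923 bp; 133 lay over 10000 bp away and 20 within 1000 bp. A peak was present in all 8 spermatogonial libraries in 26.4% of them and in none in 39.6%, against 82.9% and 8.06% of the 1476 domains with a start. Among the 105 held by RS alone, 53.3% had no spermatogonial peak. The widest domain of all was of this kind: near Grm4, 3179 bp from the nearest start (chr17:27292527-27322017), single peaks covered 15885 and 7218 bp in PS and 9938 and 8431 bp in RS, with none in spermatogonia. Near C2cd4b (chr9:67710250-67724888), 34549 bp from the nearest start, peaks were 14363 and 7726 bp in PS and 10247 and 7285 bp in RS, again with none in spermatogonia.

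Neighbouring domains near Prmt8 and Tspan11 on chromosome 6 were among the 4 longest of PS. The domain near Prmt8 (chr6:127779555-127793495) had 10250 and 13750 bp in PS and 1831 and 1028 bp in RS. The domain near Tspan11 (chr6:127794604-127811692) had 11888 and 16905 bp in PS and 8599 and 3878 bp in RS. Neither had a peak in spermatogonia, and both had their longer PS peak in replicate 2, the library with the lower background height. Near Gnal on chromosome 18 the same was seen, with 8697 and 22482 bp in PS and 6732 and 2423 bp in RS. In spermatocytes, long intergenic transcription units of this size include precursors of pachytene piRNAs; the files hold no RNA and these domains were not matched to such loci. Another domain lay within 10000 bp of 210 domains (12.01%).

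Domains covered 59 of 1005 miRNA hairpins (5.87%), in 52 domains; 235 hairpins lay in an H3K27ac region of any length. PS alone held the domains of 21, RS alone of 7, and both of 31. None of the 31 domains shared with spermatogonia held a hairpin, beside 52 of all 1749 domains. At the miR-34b and miR-34c domain, whose sequences are given above, lengths were 146 to 805 bp in spermatogonia, 4547 and 3893 bp in PS and 4597 and 3973 bp in RS. The highest fold enrichment there was 3.72 to 8.99 in spermatogonia, 30.9 and 43.2 in PS and 33.3 and 30.8 in RS. No spermatogonial value came near the adult ones, and the PS and RS values overlapped. The rule selected this domain by its lengths in PS and RS, and it was singled out after its values were seen. The fold enrichments are as deposited and not relative to each library's median.

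All 18 domains on the X chromosome were held by PS alone. RS held 0 X-linked domains of its 1127. An upper limit of 0.266% covers counting error only and not the need for a long peak in both replicates. In RS replicate 1 alone, 0.288% of the long peaks were X-linked. Long X-linked peaks numbered 23 and 25 in the PS libraries, 7 and 0 in RS, 2 in Thy1 KO replicate 1 and 0 in the other 7 spermatogonial libraries. Of all H3K27ac regions of any length 1.76% were X-linked, and of those of 3000 bp or more 0.97%. X-linked domains were 1.03% of all domains, close to the share in regions of 3000 bp or more. The pooled share joins unlike classes: it was 2.91% among domains held by PS alone and 0% in every other class. Over the 18 domains, the median longest peak was 3704 and 3597 bp in PS, 2417 and 1266 bp in RS, and 326.5 to 1709.5 bp in spermatogonia, with domains that had no peak counted as 0. RS replicate 1 had a long peak in 3 of the 18 and replicate 2 in none.

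The X-linked domains divided by their signal in spermatogonia. Of the 18, 7 had none in any of the 8 spermatogonial libraries: Ccnb3, Akap4 and those near Clcn5, Gm595, Tbx22, Brwd3 and Tgif2lx2. Ccnb3, a meiotic cyclin (chrX:7040149-7045290), had 4853 and 4469 bp in PS and 802 and 918 bp in RS. The domain near Clcn5 (chrX:7083978-7091033) had 6464 and 6873 bp in PS and 991 and 341 bp in RS. Akap4 (chrX:7063657-7071553) lies between them and differed, with 5068 and 3230 bp in PS and 5551 and 2240 bp in RS. It was outside the RS class only through RS replicate 2. The other 11 had a peak in at least 1 spermatogonial library. Ddx3x had 1570 to 2609 bp in spermatogonia, 4475 and 3455 bp in PS and 2781 and 2964 bp in RS. Usp9x, a deubiquitinase, had 935 to 2806 bp in spermatogonia, 3667 and 3762 bp in PS and 2969 and 2847 bp in RS. In both genes the 2 PS peaks were the longest, which largely follows from the length rule that placed them in the class held by PS alone. Across chromosomes the number of domains per 1000 H3K27ac regions of any length ran from 7.58 on chromosome 18 to 19.4 on chromosome 17, with 7.92 on the X.

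**Figure D5:**
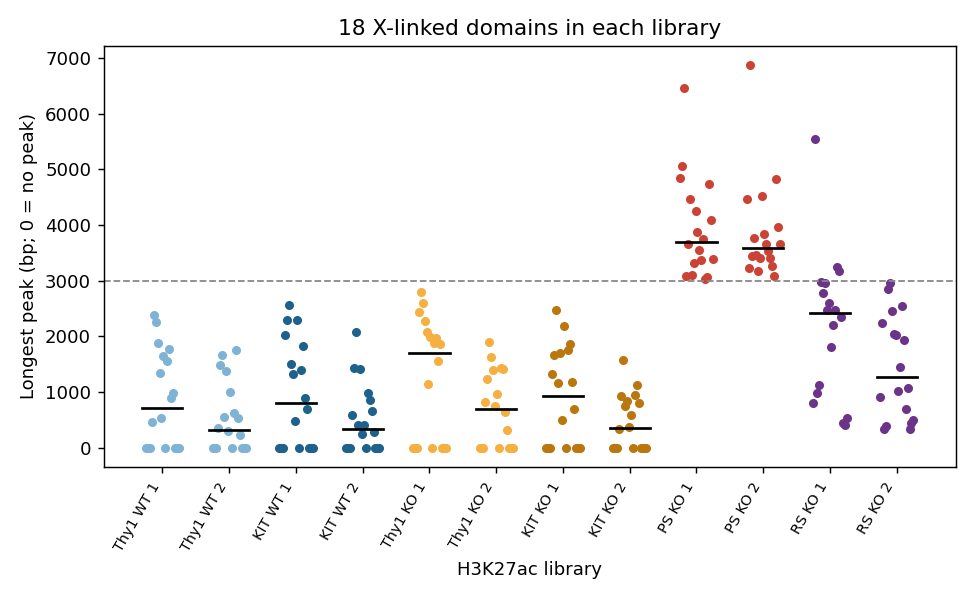
Longest peak (bp) over each of the 18 X-linked domains (points) in the 12 H3K27ac libraries, with the median as a black bar and the 3000 bp limit as a dashed line; 0 stands for no peak. The PS medians are 3704 and 3597 bp, and the RS medians 2417 and 1266 bp.

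The DNA of domain promoters was mostly rich in CG, and this depended on whether spermatogonia also had a peak there. RefSeq promoters of 300 bases (250 before to 50 after the start) were available for 2123 starts in domains. A ratio of observed to expected CG of 0.6 or more was taken as high and was found in 72.9% of them, in 61.4% of promoters in an H3K27ac peak outside domains and in 35.8% of all promoters. Where the domain had a peak in all 8 spermatogonial libraries, 81.9% of 1795 promoters were high (median ratio 0.842), against 82.2% of 8378 promoters outside domains whose region had a peak in all 8. Where the domain had no spermatogonial peak, 6.02% of 166 were high (median 0.186), against 11.8% of 2762 such promoters outside domains. The domains held by RS alone contained both kinds, with 4.29% of 140 and 82.7% of 392. The Tnp1, Prm1, Spem1 and Akap4 windows printed above belong to the group without spermatogonial peaks, and those of Brd2, Jun, Junb and Ddx3x to the group with a peak in all 8.

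Short motifs were searched on both strands of the 300 bases. The full cAMP response element TGACGTCA, which CREB and CREM bind, was in 78 (3.67%) of domain promoters, 2.90% of promoters in a peak outside domains and 1.79% of all promoters, and its shorter form TGACGT, which the full element contains, in 13.7%, 10.7% and 7.51%. The GC box GGGCGG was in 66.0%, 56.4% and 35.7%, and TATAAA in 6.45%, 7.08% and 13.6%. CCAAT was in 36.5%, 37.4% and 37.4%, GTTGCCA, a form bound by RFX factors, in 3.86%, 4.90% and 4.38%, and CAGTTG, a form bound by MYB factors, in 9.75%, 11.8% and 13.7%. These are matches of letters and were not tested.

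To compare signal strength, each library's highest fold enrichment in a region was fitted with limma on the log2 scale, relative to the library's median over the regions tested. Regions needed a peak in every library compared, so the members tested are those already acetylated in both groups. Between genotypes in spermatogonia, 1295 members were tested among 9502 regions. None was higher in KO and none lower (limma, Benjamini-Hochberg adjusted p under 0.05), with 0% and 0% of all regions called. At an unadjusted p under 0.05 there were 35 members and 493 regions. The median log2 difference, KO minus WT, was −0.04 over members and −0.04 over all regions. At Brd2 the fold enrichment was 28.3 and 22.3 in Thy1 WT, 42.5 and 28.8 in Thy1 KO, 32.5 and 23.6 in KIT WT, and 30.7 and 20.4 in KIT KO; Thy1 KO replicate 1 was the highest. Thy1 KO replicate 1 also had the highest median log2 fold of the 8 libraries over members, 4.48 against 3.31 to 3.78. A peak over the listed start of Scml2 itself was called in PS KO replicate 2 alone (fold enrichment 5.33), so these data do not check the genotype labels.

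Between c-Kit+ and Thy1+ cells, 12 of the 1295 tested members were higher in c-Kit+ cells and 1 was lower, against 0.81% and 0.274% of all regions. Mgst1, a glutathione transferase of membranes (held by PS), had fold enrichments of 4.19 and 4.22 in Thy1 WT, 7.59 and 5.76 in Thy1 KO, 12.5 and 7.44 in KIT WT, and 12.8 and 10.5 in KIT KO. The KIT and Thy1 values overlap only at 7.44 and 7.59, and the log2 difference was 1.27 with an SE of 0.16 (adjusted p = 0.000204 from limma). A domain near Zmat5 was higher by 1.02 (SE 0.19, adjusted p = 0.0103 from limma), and Etnk2, an ethanolamine kinase, by 0.92 (SE 0.17, adjusted p = 0.00937 from limma). Slc22a5, the carnitine transporter, fell by 0.67 (limma, SE 0.15 and adjusted p = 0.0346). Its fold enrichments were 11.0, 13.3, 19.7 and 12.2 in the Thy1 libraries and 7.98, 6.82, 8.04 and 5.83 in the KIT libraries, and these ranges do not overlap. Without centring, no member was called. Leaving out single libraries gave 1 to 16 calls, with 1 without Thy1 WT replicate 1, 2 without KIT WT replicate 2 and 3 without KIT KO replicate 2.

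The stage comparisons used the same libraries as the selection, and their calls are a description. From KIT KO to PS KO, 196 of 1383 tested members were higher and 44 lower relative to the median region, beside 6.87% and 25.1% of 12469 regions. The median log2 fold enrichment over all tested regions was itself 3.17 and 2.81 in KIT KO and 4.04 and 4.09 in PS. Without centring, 1318 members were higher and 1 lower, and with quantile normalization 86 and 7. Gstt2, a glutathione transferase, differed most, with fold enrichments of 6.15 and 4.08 in KIT KO and 33.6 and 43.2 in PS (1.85 relative to the median region, SE 0.20). Usp2, a deubiquitinase, had 8.51 and 4.08 in KIT KO and 33.9 and 45.9 in PS, and Tcp11, a testis gene, 5.20 and 4.08 and 26.7 and 30.9. Hspa4l and Sox30 were also among the higher members, at 1.49 (SE 0.20) and 1.35 (SE 0.19).

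The lower calls in PS are likewise relative to the median region. Sirpa, a receptor held as a domain by RS, was lower also as deposited, with 10.9 and 7.00 in KIT KO, 6.48 and 4.80 in PS and 15.7 and 14.1 in RS (−1.72, SE 0.22). Klf6 had 26.0 and 22.7 in KIT KO and 28.6 and 28.3 in PS, and the sign of its difference turned from −0.85 to 0.23 without centring; Atf4 turned likewise, from −0.54 to 0.54. Of the 28 tested immediate early domains 1 was higher (Ier3) and 2 lower, with a median of −0.04, while the median over all regions was −0.17. Without KIT KO replicate 2, no member passed the threshold in this comparison, without PS KO replicate 2 104 did, and without PS KO replicate 1 144.

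From PS KO to RS KO, 210 of 1735 tested members were higher and 120 lower, beside 13.3% and 7.71% of 21302 regions. Without centring the split was 196 and 238, and when libraries without a peak were given their own minimum it was 209 and 402. Arap1, a regulator of small GTPases, had fold enrichments of 3.43 and 3.20 in PS and 12.5 and 10.8 in RS (2.02 relative to the median region, SE 0.20), with peaks of 227 and 164 bp in PS and 4574 and 4064 bp in RS. Of the 19 spermatid gene domains, all tested, 8 were higher in RS and 0 lower, with a median of 0.60 against −0.07 over all regions. The 8 were Tnp1, Smcp, Oaz3, Catsper4, Gsg1, Spem1, Odf1 and Ropn1. Of these, 7 were selected by RS length alone, and Gsg1 by PS and RS. The Spem1 domain also holds the start of 4933402P03Rik. Catsper4 had 9.53 and 5.87 in PS and 19.6 and 20.0 in RS (1.61, SE 0.26). The tested value is the highest in the whole region. For the domains that also hold Socs1 or Dgcr2 it was 0.02 (SE 0.20) with Tnp2 and −0.19 (SE 0.19) with Tssk1 and Tssk2, and it therefore does not speak for the spermatid genes, whose values over the starts are given above.

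Among members lower in RS, the domain near Hs3st3b1 had 13.7 and 20.3 in PS and 4.30 and 3.79 in RS (−1.84, SE 0.22). The domain near Cep110 had 19.1 and 19.2 in PS and 5.48 and 4.33 in RS (−1.77, SE 0.19). On the X chromosome, Ccnb3 had 19.5 and 20.3 in PS and 8.21 and 5.41 in RS (−1.37, SE 0.20), and the domain near Clcn5 14.9 and 20.8 and 7.04 and 7.03 (−1.12, SE 0.22). Usp9x kept its height, with 24.8 and 23.5 in PS and 23.5 and 20.0 in RS (0.05, SE 0.19), while its peaks were shorter in RS. Without PS KO replicate 2, no member passed the threshold in the comparison of RS with PS. Without RS KO replicate 1, 217 did. In bulk chromatin, a domain acetylated in fewer cells and a domain with less acetylation per cell cannot be told apart.

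Some domains lay at genes known from somatic cells, all of which are also on the marker lists counted here. Amh, the Sertoli cell hormone, was held by PS (4609 and 3759 bp), with 1926 and 1047 bp in RS. The Leydig cell genes Star, which moves cholesterol into mitochondria, and Insl3, a peptide hormone, were also held by PS, at 4765 and 4810 bp and at 3182 and 3080 bp, with 543 and 190 bp and no peak in RS. Peaks covered the starts of 10 and 10 of 15 Sertoli markers in PS, 2 and 1 in RS and 2 to 6 in spermatogonia, with summed fold enrichments of 104.9 and 124.2, 17.99 and 12.98, and 10.9 to 63.3. Of 20 Leydig, interstitial and peritubular markers, 8 and 7 were covered in PS, 5 and 0 in RS and 3 to 10 in spermatogonia, with summed fold enrichments of 53.8 and 50.1, 25.8 and 0, and 16.9 to 117.0. The Sertoli markers Aard, Amh, Clu, Dhh, Inha, Inhbb and Wt1 had a peak over the start in both PS libraries and in neither RS library. The same held for Cyp11a1 and Insl3 of the other list. Fshr, Rhox5, Cst9, Nr0b1, Cyp17a1, Hsd3b1, Igf1 and Myh11, also on these lists, had no peak over the start in any library. The part of such cells in the domains was not tested.

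The domain over Cd68, a macrophage marker, and Mpdu1 was held by RS alone (4646 and 4743 bp, with 2206 and 3261 bp in PS). A peak covered the Cd68 start in both RS libraries, in neither PS library and, among spermatogonia, in Thy1 KO replicate 1 alone. The endothelial gene Cdh5 was held by PS, with 4007 and 4441 bp, against 1078 and 530 bp in RS. In spermatogonia it had 162 and 291 bp in Thy1 WT, 524 and 324 bp in KIT WT, 1683 and 1687 bp in Thy1 KO, and 1311 and 1837 bp in KIT KO. The KO and WT lengths do not overlap, but lengths were not tested between genotypes. Of 13 blood and endothelial markers, 4 and 6 starts were covered in RS, 2 and 2 in PS and 0 to 5 in spermatogonia, with summed fold enrichments of 38.7 and 46.0, 16.4 and 14.9, and 0 to 31.9; Csf1r, Hba-a1, Tek and Tie1 were at 0 in all libraries. Markers of the labelled cells were covered as follows. Spermatid markers were covered at 40 of 40 starts in both RS libraries, 39 and 30 in PS and 4 to 9 in spermatogonia. Meiotic markers were covered at 39 and 38 of 39 in PS, 38 and 36 in RS and 4 to 19 in spermatogonia. Spermatogonial markers did not follow the label in the same way: 4 to 16 of 34 starts were covered in spermatogonial libraries, 20 and 15 in PS and 18 and 16 in RS, and Gfra1, Sall4, Nanos2, Lin28a and Utf1 had no peak over the start in any library. The identity of the spermatogonia therefore rests on the labels and not on these markers.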

How the data were processed

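H3K27ac and input chromatin of testicular germ cells were profiled by ChIPmentation, in which a transposase adds the sequencing adapters to the immunoprecipitated chromatin. Bowtie, MACS2 and the build mm10 are named without roles or versions in the submitters' processing notes. Each library had its own deposited peak table, so replicates were not pooled. Per the file headers, each peak had a start, end and length in bp, and each summit a signal height (pileup), a fold enrichment over background, a −log10 p and a −log10 q. Read counts were not given, so depth is unknown and no counting interval was computed for peaks.

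Mitochondrial peaks were left out. Lengths were taken as deposited, and overlap meant at least 1 bp. Transcription starts came from the deposited tables and from RefSeq tables of GRCm38.p6, the same build as mm10; of 12926 starts matched by symbol, 98.2% lay within 1000 bp of each other. Promoter and miRNA sequences are from RefSeq (GRCm38.p6). Region values were the highest fold enrichment per library, in regions merged over all 12 H3K27ac libraries, log2 transformed and centred on the library's median over tested regions. They were fitted with limma 3.58.1 (R 4.3.3; spermatogonial fits with genotype and cell type, adult fits with stage) and adjusted by Benjamini-Hochberg over all regions tested. The fit was tested on simulated data with known changes. Other work used Python 3.11.15 with pandas 2.3.3.

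Groups and replicate numbers came from the sample titles. The labels do not say whether replicates came from separate animals, so p-values measure only the spread between these libraries, which may be technical. H3K27ac of WT spermatocytes and spermatids was not analysed here. The same replicate numbers occur in all groups; deviations of same-numbered libraries correlated at 0.000168 to 0.16, and the numbers were not taken as pairs. Members and gene lists were chosen with earlier results of these data known. Named with values were the 4 longest domains of each group, those held by all 6 groups, the 6 longest held by adult groups alone, domains of the gene lists, the 3 largest rises and falls per comparison, and the members nearest the 3000 bp limit; examples of these are given. The domains shared with spermatogonia, X-linked domains, wide domains without a start and the miR-34 domain were singled out after their values were seen. Alternatives were other length limits, an equal number of longest peaks per library, joined peaks, kept input overlaps, other scaling, stricter peaks, imputed values, the replicate block and leaving out each replicate.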

Additional observations from a re-analysis of the deposited data

Results flagged for a closer look

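In 6 of 87 named domains with a peak in all 8 spermatogonial libraries, both KO replicates lay above both WT replicates in 1 cell type and below them in the other. That is 6.90%, against 4.93% of all 9502 regions tested between genotypes (468), so the 6 are close to the share over all regions. The difference between the effects, on the log2 scale as the KO minus WT difference in Thy1+ cells less that in c-Kit+ cells, was 0.7572 at Fosl2, 0.5071 at Kdm6b, 0.4178 at Ier3 and Flot1, and 0.3732 at Phc2, where KO was higher in Thy1+ and lower in c-Kit+ cells. It was -0.6474 at Foxo1 and -0.3125 at Rhob, where KO was lower in Thy1+ and higher in c-Kit+ cells. These differences were not tested, and with 2 replicates in each group no genotype difference of these domains passed the threshold. The values are the highest in each domain, and at Kdm6b no spermatogonial peak covered the listed start.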

How the results depend on the processing

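The number of domains (1749) was 6195 at 2000 bp, 560 at 4000 bp, 4737 with peaks within 1000 bp joined and 26 with the 21 longest peaks taken from each library. Domains held by spermatogonia alone then numbered 10, 0, 31 and 11, those held by adult cells alone 5715, 557, 4432 and 12, and those held by both 470, 3, 274 and 3. With input overlaps kept, 1 domain was held by spermatogonia alone. With an equal number of longest peaks the surplus of adult domains was thus not seen, a setting that removes the difference in the number of long peaks by construction. Leaving out 1 replicate gave 1749 to 2733 domains in all (2733 without RS KO replicate 2), 0 to 93 held by spermatogonia alone, 1523 to 2702 by adult cells alone and 31 to 226 by both. The last were 47, 64, 107 and 226 without replicate 2 of Thy1 WT, KIT WT, KIT KO and Thy1 KO.

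Members called between c-Kit+ and Thy1+ cells (13) numbered 22 with the replicate block, 0 without centring, 0 with stricter peaks (−log10 q of at least 10), 26 with imputed values (a library without a peak given its own minimum) and 1 to 16 without single replicates. Between PS and c-Kit+ cells (240) they numbered 93 with quantile normalization, 1319 without centring, 102 with stricter peaks, 208 with the replicate block and 0 to 298 without single replicates. Between RS and PS (330) they numbered 152 with stricter peaks, 611 with imputed values (209 higher, 402 lower), 357 with the replicate block and 0 to 306 without single replicates. Calls between genotypes stayed at 0 with the replicate block. The cause was not tested; stricter peaks leave fewer regions to test. Without centring the difference of PS from c-Kit+ cells turned positive at Mgst1 (0.49), Klf6 (0.23) and Atf4 (0.54). Of 62 calls of named members, 59 held with the replicate block, 45 with quantile normalization, 2 of 31 without KIT KO replicate 2 and 14 of 56 without PS KO replicate 2. In all 6 groups replicate 2 had the lower background height and fewer long peaks; the part of depth in the lengths was not tested.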
